A study of Mus musculus with 12 samples.

Results

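The 10 immediate early genes described here were Fos, Fosb, Jun, Junb, Jund, Egr1, Ier2, Ier3, Dusp1 and Nr4a1, taken by symbol from a table of raw RNA-Seq counts with 55376 genes. The RNA came from oligodendrocytes that were sorted as live O1+ CD45- cells from mouse brains at postnatal day 40, with 4 samples for each of 3 genotypes and 2 brains in each sample. WT mice were compared with Cnp-Cre Jab1fl/fl mice, called Jab1 mutants below, and with Cnp-Cre Jab1fl/fl p21CIP1-/- mice, called double mutants below. All mice were given as C57BL/6. For the Cdkn1a knockout line of the double mutants the paper lists another strain of origin, with backcrossing. Dusp1 and Ier3 share chromosome 17 with Cdkn1a, and sequence of that strain near Cdkn1a was not examined here. In both mutants Cre is driven by Cnp, a gene of the oligodendrocyte lineage, so that Jab1 is deleted in that lineage. The loss of p21CIP1, the product of Cdkn1a, is constitutive and so is present in every cell type of the double mutants, and p21CIP1-/- mice with intact Jab1 were not analysed here. All 10 genes passed the filter of at least 1 CPM, the count scaled to the size of its library, in at least 4 of the 12 samples.

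Immediate early genes are transcribed within minutes of a growth factor, a depolarization or a stress signal, from promoters that already carry their activators, and their mRNAs and proteins decay quickly. Many encode transcription factors: Jun and Fos proteins pair into the AP-1 complex, and Egr1 and Nr4a1 bind DNA through zinc fingers. Others, such as the phosphatase gene Dusp1, feed back on the MAP kinases that switch the program on. Jab1, encoded by Cops5, is the deneddylating subunit of the COP9 signalosome and takes its name from binding the activation domain of Jun. In brain tissue these genes are also known to respond to enzymatic dissociation, a step that all 12 samples went through before sorting. Its part in the levels was not tested.

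In Jab1 mutants, 4 of the 10 genes were called higher than in WT, against 5.19% of all genes tested: Junb 4.96-fold, Ier3 4.81-fold, Ier2 4.34-fold and Dusp1 2.28-fold. Fos, the best known gene of the class, had nearly the same mean level in WT and in Jab1 mutants, with 69.1 ± 46.9 and 72.1 ± 11.8 CPM (SD, n = 4 each). In double mutants Junb, Ier2 and Dusp1 were again above every WT sample, against 4.52% of all genes tested. No member passed the adjusted threshold against WT there, where only 0.175% of all genes were called higher. Between double mutants and Jab1 mutants no member passed either, and edgeR called 0% of all genes. The 10 genes were chosen with earlier results of these data known.

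Most of the genes are short. In the transcripts of the basic GENCODE M21 annotation of GRCm38, 4 of the 10 members, Jun, Junb, Jund and Ier2, consisted of a single exon block, against 2.85% of the 13713 protein-coding genes tested. The gene records of the members spanned a median of 3809 bases against 25053 bases. A gene record can reach beyond these transcripts: that of Junb spans 4235 bases, with 1 exon block of 1809 bases. Dusp1, with 56539 bases, and Nr4a1, with 20527 bases, had the longest gene records. The RefSeq start of Dusp1, in the window given below, lies inside its record and near its downstream end at 26505590. A transcript from that start is therefore far shorter than the record. Sequences upstream of the start were taken from RefSeq for GRCm38.p6, as windows of 300 bases that lie mostly upstream of the RefSeq start and end 50 bases past it, and 8 members were searched, leaving out Egr1 and Ier2. The windows shown are those of the called genes Junb, Dusp1 and Ier3 and that of Fos, which was not called. They are chr8:84978699-84978998 on the minus strand for Junb, chr17:26508423-26508722 on the minus strand for Dusp1, chr17:35821463-35821762 on the plus strand for Ier3 and chr12:85473640-85473939 on the plus strand for Fos. Capitals mark the core CRE TGACG and the full CRE TGACGTCA, the element bound by CREB and ATF proteins, on either strand, and the TATA motif TATAAA on the gene's strand.
Junb: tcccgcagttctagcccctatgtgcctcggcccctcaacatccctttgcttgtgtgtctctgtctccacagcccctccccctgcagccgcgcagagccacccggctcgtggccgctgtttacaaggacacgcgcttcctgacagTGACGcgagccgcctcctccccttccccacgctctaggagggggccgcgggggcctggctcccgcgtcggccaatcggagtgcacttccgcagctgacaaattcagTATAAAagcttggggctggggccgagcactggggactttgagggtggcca
Dusp1: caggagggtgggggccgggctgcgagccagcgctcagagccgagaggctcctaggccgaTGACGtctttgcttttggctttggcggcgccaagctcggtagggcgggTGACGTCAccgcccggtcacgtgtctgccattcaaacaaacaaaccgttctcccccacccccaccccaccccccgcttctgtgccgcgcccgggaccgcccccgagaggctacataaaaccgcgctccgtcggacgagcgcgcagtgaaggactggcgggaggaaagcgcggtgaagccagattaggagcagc
Ier3: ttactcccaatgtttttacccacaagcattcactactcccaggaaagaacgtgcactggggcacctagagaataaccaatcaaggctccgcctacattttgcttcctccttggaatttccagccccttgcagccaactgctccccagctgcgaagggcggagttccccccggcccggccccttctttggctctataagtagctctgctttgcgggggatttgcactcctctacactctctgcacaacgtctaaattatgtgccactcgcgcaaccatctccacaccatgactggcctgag
Fos: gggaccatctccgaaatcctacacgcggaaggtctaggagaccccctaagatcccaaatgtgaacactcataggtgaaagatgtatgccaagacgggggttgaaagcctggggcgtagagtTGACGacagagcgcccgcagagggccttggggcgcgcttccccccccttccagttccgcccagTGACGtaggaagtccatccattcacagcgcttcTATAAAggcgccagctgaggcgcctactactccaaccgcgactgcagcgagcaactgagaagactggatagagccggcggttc

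The core CRE was present in 5 of the 8 windows searched, those of Dusp1, Fos, Fosb, Junb and Nr4a1, and in 20.8% of 32851 RefSeq windows of the same length. The full CRE, which contains the core CRE, was found in Dusp1 and in 1.79% of all windows. The EGR motif GCGGGGGCG, searched on both strands, was found in Fosb and Nr4a1 and in 2.91% of all windows, and the TATA motif in Fos and Junb and in 8.32%. The AP-1 motif TGANTCA, present in 7.81% of all windows, and the CArG box bound by SRF, present in 1.63%, did not occur in these 8 windows, which says only that those letters are not there. Genes with the core CRE included called genes (Junb, Dusp1) as well as genes that were not called (Fos, Fosb, Nr4a1), and the window of the called gene Ier3 held none of the 6 motifs.

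Depth did not limit most of these genes. Total counts per sample ran from 61485556 to 153495112, so that in the least deep sample 1 CPM stood for 67.9 counts after TMM scaling. Counts over the whole Cops5 gene were 46.3 to 133 CPM in WT, 45 to 89 CPM in Jab1 mutants and 44.2 to 90.4 CPM in double mutants, with overlapping samples, and such counts do not test a deletion of part of a gene. Cdkn1a was at 16 to 85.3 CPM in WT, 379 to 637 CPM in Jab1 mutants and 64.7 to 103 CPM in double mutants, where the same limit applies. Levels of cell type markers differed between the sorted samples. Summed CPM of 10 mature oligodendrocyte markers was 45315 to 104695 in WT, 9031 to 35277 in Jab1 mutants and 16862 to 52632 in double mutants, while that of 13 microglia markers was 89.3 to 237, 935 to 2132 and 273 to 14164, although the CD45- gate would remove microglia. In bulk samples, fewer cells of a type and less RNA per cell cannot be told apart.

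The Jun family showed the clearest split among its members. Jun, on chromosome 4 from 95049034 to 95052222, encodes the founding subunit of AP-1. It stood at 135, 124, 224 and 160 CPM in WT replicates 1, 3, 5 and 6, at 355, 320, 280 and 300 CPM in Jab1 mutant replicates 1 to 4, and at 184, 321, 235 and 226 CPM in double mutant replicates 1, 2, 3 and 5. Every Jab1 mutant sample was above every WT sample, whereas double mutant replicate 1 fell below WT replicate 5. The change in Jab1 mutants was 0.96 ± 0.28 on the log2 scale (± SE) and missed the threshold, with an edgeR adjusted p of 0.0637. DESeq2 (adjusted p = 0.0125) and limma-voom with quality weights (0.0189) placed it past the threshold.

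Junb, on chromosome 8 from 84974484 to 84978718, encodes an AP-1 subunit that can restrain Jun. Its values were 8.45, 6.84, 16.4 and 5.73 CPM in WT, 77.3, 33.7, 33.5 and 40.9 CPM in Jab1 mutants and 29.4, 43, 120 and 33.4 CPM in double mutants, in the same replicate order. No mutant sample of either kind reached down to WT. Junb changed on the log2 scale by 2.31 ± 0.45 in Jab1 mutants, with an edgeR adjusted p of 0.0117, and 2.59 ± 0.55 in double mutants, with an edgeR adjusted p of 0.0925 and a DESeq2 adjusted p of 1.76e-04. The highest value, in double mutant replicate 3, came from the sample with the most microglia markers (14164 summed CPM). Without that sample the log2 change in double mutants was 1.9, and without Jab1 mutant replicate 1 that in Jab1 mutants was 1.95 with an edgeR adjusted p of 0.0354.

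Jund, on chromosome 8 from 70698949 to 70700616, is the family member that is expressed without induction in most cells. It stood at 19, 38.6, 32.2 and 15.3 CPM in WT, 28.8, 22.7, 16.5 and 21.8 CPM in Jab1 mutants and 36.2, 30.8, 23.5 and 25.6 CPM in double mutants. The 3 genotypes overlapped, with log2 changes of -0.23 ± 0.38 in Jab1 mutants and of 0.13 ± 0.36 in double mutants. Its exon shares 877 bases with the antisense gene Gm11175, which had 0 counts in all 12 samples, and whether reads were counted by strand is not stated, so its level is uncertain. Reads over the shared bases may have been left out, in which case the level is too low.

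Per kilobase of exon, with Jund divided by its full exon, Jun made up most of the family in all samples but one. Junb accounted for 5.08 to 9.16% of the summed CPM per kb of Jun, Junb and Jund in WT, for 14.1 to 24.9% in Jab1 mutants and for 16.6 to 43.1% in double mutants. Jund accounted for 14.7 to 35.1%, 8.53 to 10.3% and 9.14 to 22.7% in the same order. The Junb share was thus higher in each of the 8 mutant samples than in any WT sample, and the Jund share was lower in each Jab1 mutant sample than in any WT sample. These shares follow from the levels above and were not tested on their own. They divide Jund by its full exon of 1668 bases, although reads over the 877 bases shared with Gm11175 may not have been counted. The Jund share may thus be too low, and those of Jun and Junb too high, so that Jun may hold most of the family in fewer samples. In double mutant replicate 3 Junb (43.1%) came close to Jun (47.7%).

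**Figure D1:**
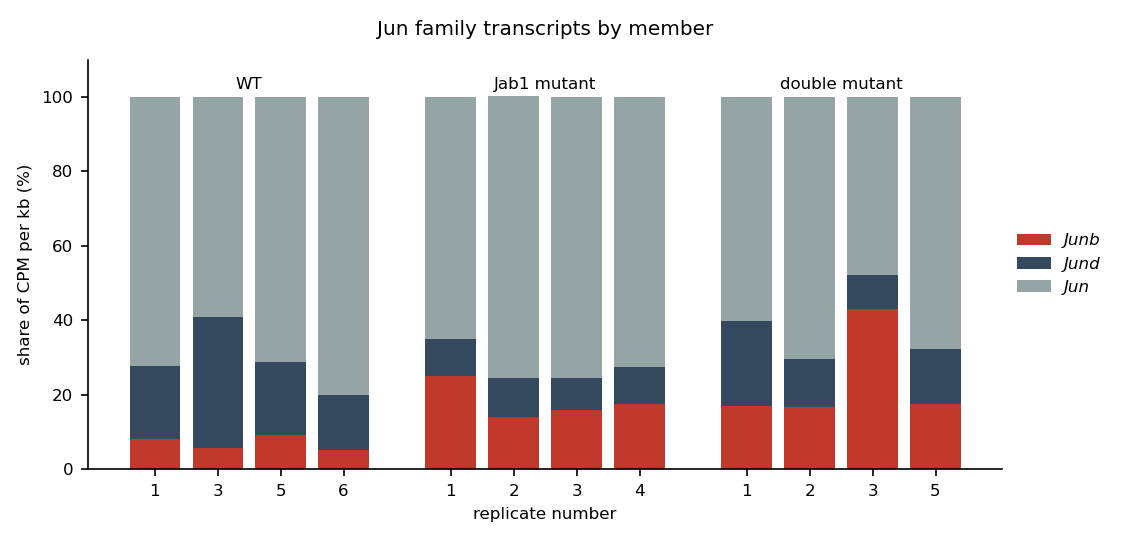
Share of Junb, Jund and Jun in the summed CPM per kb of exon of the family (y axis, percent) in each of the 12 samples (x axis, replicate number, by genotype). The Junb segment runs from 5.08 to 9.16% in WT, 14.1 to 24.9% in Jab1 mutants and 16.6 to 43.1% in double mutants. Jund may lack reads over the bases it shares with Gm11175.

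The Fos family was held by Fos alone in practice, and Fos did not separate the genotypes. Fos, on chromosome 12 from 85473890 to 85477273, encodes the inducible partner of Jun in AP-1. It was at 115, 24.3, 104 and 33.4 CPM in WT, at 85.5, 78.6, 61.4 and 63 CPM in Jab1 mutants and at 119, 117, 67.3 and 26.9 CPM in double mutants. WT samples were either high (replicates 1 and 5) or low (replicates 3 and 6), with a 4.72-fold range, and all Jab1 mutant samples lay between them in a 1.39-fold range. Its log2 change was 0.06 ± 0.47 in Jab1 mutants (95% interval -0.85 to 0.97) and 0.24 ± 0.58 in double mutants (-0.9 to 1.38), and differences within these intervals were not detectable here. The direction in Jab1 mutants turned to -0.24 without WT replicate 3 and to -0.04 with no filter on low counts.

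Fosb, on chromosome 7 from 19302696 to 19310051, encodes a more stable relative of Fos and had few counts. It had 1.26, 0.00646, 1.33 and 0.325 CPM in WT, where the lowest value is 1 count, 3.94, 0.849, 3.02 and 3.69 CPM in Jab1 mutants, and 7.09, 1.08, 0 and 0.0628 CPM in double mutants. Both the highest and the lowest samples were double mutants, and the genotypes overlapped. The log2 change was 1.98 ± 1.27 in Jab1 mutants and 1.47 ± 1.87 in double mutants, with edgeR adjusted p of 0.403 and 0.796, and the latter turned to -0.95 without double mutant replicate 1. Fos made up 95.1 to 99.7% of the summed CPM per kb of Fos, Fosb, Fosl1 and Fosl2 in the 12 samples.

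Egr1, on chromosome 18 from 34859823 to 34864984, encodes an inducible zinc finger factor. It stood at 30, 13.3, 25.9 and 17.6 CPM in WT, 63.6, 45.6, 36.9 and 30.4 CPM in Jab1 mutants and 27.3, 48.9, 49.6 and 39.9 CPM in double mutants. The Jab1 mutants lay above WT by the narrow gap between 30.4 and 30 CPM. Egr1 had a log2 change of 1.02 ± 0.36 in Jab1 mutants, with an edgeR adjusted p of 0.119, and 0.92 ± 0.35 in double mutants, with an edgeR adjusted p of 0.316. DESeq2 did not place it past the threshold either, with adjusted p of 0.077 and 0.186.

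Nr4a1, on chromosome 15 from 101254269 to 101274795, encodes an orphan nuclear receptor. Its values were 5.56, 11.9, 4.1 and 3.88 CPM in WT, 12.3, 4.13, 5.17 and 1.75 CPM in Jab1 mutants and 3.08, 1.7, 4.43 and 3.41 CPM in double mutants. WT replicate 3 and Jab1 mutant replicate 1 stood above the other 10 samples, and the genotypes overlapped. The log2 change was -0.12 ± 0.71 in Jab1 mutants and -1.02 ± 0.64 in double mutants, the only member with a negative estimate in the latter, with an edgeR adjusted p of 0.554.

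**Figure D2:**
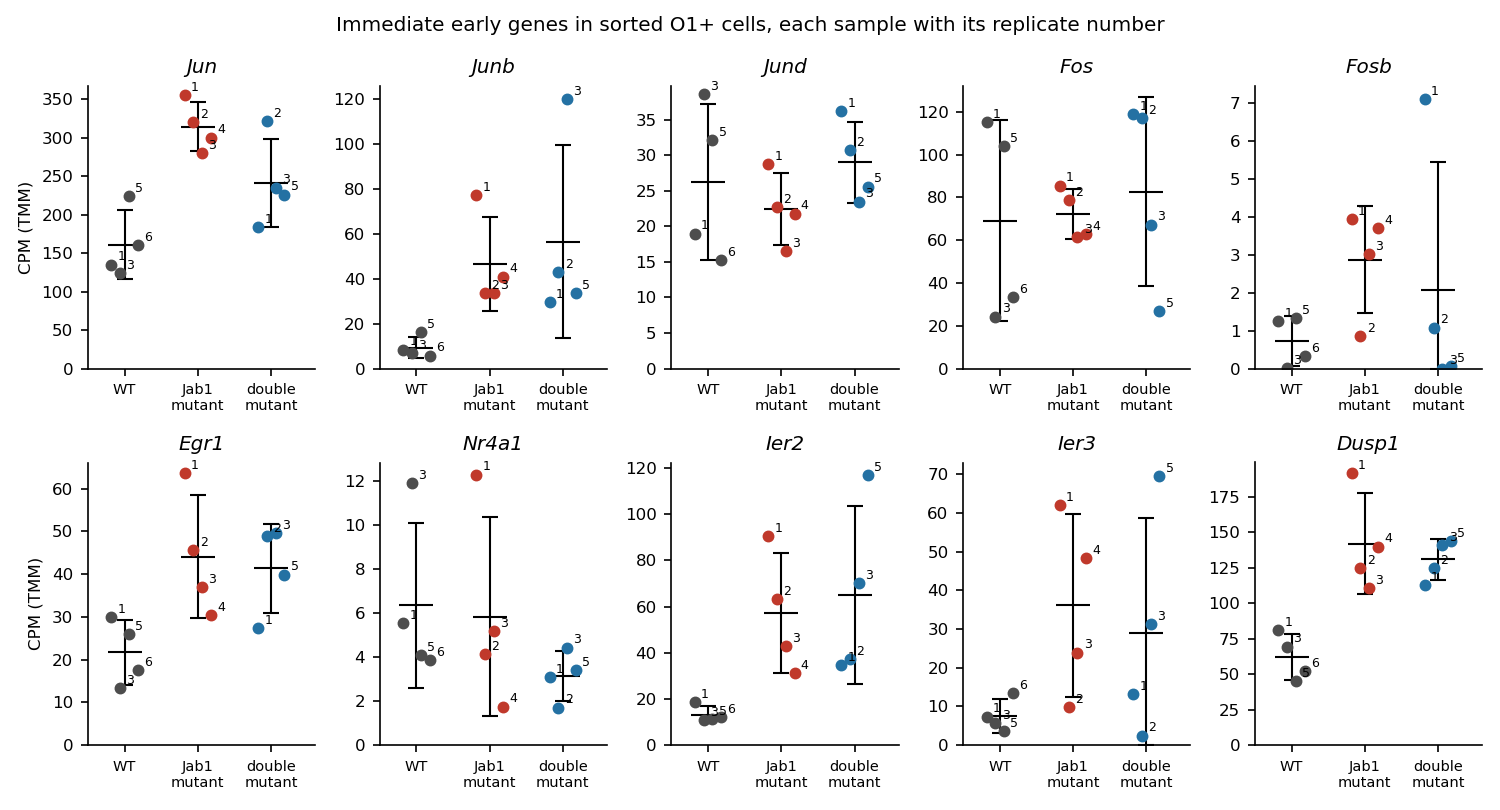
CPM after TMM scaling (y axis, linear from 0, a scale of its own in each panel) of the 10 genes in WT, Jab1 mutants and double mutants; points are samples with their replicate numbers, horizontal bars are means and vertical bars SD (n = 4), with lower ends below 0 drawn at 0. Junb, Ier2 and Dusp1 were above every WT sample in both mutants, while Fos spread from 24.3 to 115 CPM within WT. Of all genes tested, 9.9% lay above every WT sample in Jab1 mutants and 4.52% in double mutants.

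Ier2, like Junb, had all mutant samples of both kinds above WT. Ier2, on chromosome 8 from 84661331 to 84662852, encodes a short-lived nuclear protein. It was at 18.5, 10.9, 11.1 and 12 CPM in WT, at 90.5, 63.2, 43 and 31.3 CPM in Jab1 mutants and at 34.8, 37.3, 70.1 and 117 CPM in double mutants. The lowest of the 8 mutant samples, at 31.3 CPM, stood above the highest WT sample, at 18.5 CPM, while the mutants overlapped each other. On the log2 scale Ier2 changed by 2.12 ± 0.39 in Jab1 mutants, with an edgeR adjusted p of 0.00951, the smallest of the members, and 2.29 ± 0.44 in double mutants, with an edgeR adjusted p of 0.0803 and a DESeq2 adjusted p of 5.63e-05.

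Ier3, on chromosome 17 from 35821684 to 35822923, encodes a regulator of survival under stress and was the most variable called member. It had 7.34, 5.59, 3.55 and 13.5 CPM in WT, 62.1, 9.8, 23.9 and 48.4 CPM in Jab1 mutants and 13.2, 2.43, 31.3 and 69.6 CPM in double mutants. Jab1 mutant replicate 2 lay below WT replicate 6, and double mutant replicate 2 was the lowest of all 12 samples. For Ier3 the log2 change was 2.27 ± 0.6 in Jab1 mutants, with an edgeR adjusted p of 0.0436, and 1.95 ± 0.83 in double mutants, with an edgeR adjusted p of 0.366.

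Dusp1, on chromosome 17 from 26505590 to 26562128, encodes a nuclear phosphatase that switches off JNK, p38 and ERK. It stood at 81.1, 69.5, 45.2 and 52.3 CPM in WT, 192, 125, 111 and 140 CPM in Jab1 mutants and 113, 125, 141 and 144 CPM in double mutants. Both mutants lay wholly above WT. The log2 change was 1.19 ± 0.3 in Jab1 mutants, with an edgeR adjusted p of 0.036, and 1.06 ± 0.28 in double mutants, with an edgeR adjusted p of 0.163 and a DESeq2 adjusted p of 0.00652. The calls of Ier3 and Dusp1 in Jab1 mutants were less firm than those of Ier2 and Junb, which stood whichever sample was left out. That of Ier3 was lost without any one of WT replicates 1, 3 and 5 or Jab1 mutant replicates 1, 3 and 4 (adjusted p 0.0654 to 0.12), and that of Dusp1 without any one of WT replicates 3, 5 and 6 or Jab1 mutant replicates 1, 3 and 4 (adjusted p 0.0519 to 0.106).

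Read against all genes, the members had more calls in one direction. They and the lists of related genes were chosen with earlier results of these data known. In Jab1 mutants 4 of 10 were called higher and 0 lower by edgeR, where 5.19% of the 17716 genes tested were called higher and 2.46% lower, and 8 of 10 had a positive estimate. In 5 members, Jun, Junb, Egr1, Ier2 and Dusp1, all Jab1 mutant samples were above all WT samples, against 9.9% of all genes. DESeq2 called 5 members, adding Jun, where it called 15.2% of all genes in either direction. The median log2 change was 1.11 over the members and 0.02 over all genes tested.

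In double mutants against WT edgeR called 0 of 10, where it called 0.175% of all genes higher. At an unadjusted p below 0.05, 5 members were higher (Junb, Ier2, Ier3, Dusp1 and Egr1), against 7.82% of all genes, and DESeq2 called 3 (Junb, Ier2 and Dusp1), where it called 4.87% of all genes in either direction. In those same 3 members all double mutant samples were above WT, against 4.52% of all genes. The median log2 change was 0.99 over the members and 0 over all genes. This comparison and the previous one share their 4 WT samples. With all 12 samples in one edgeR fit, Ier2 and Junb passed the threshold in double mutants (adjusted p 0.0279 and 0.0321), and so they did when double mutant replicate 1 was left out (0.0297 and 0.0395). In Jab1 mutants the fit of all 12 samples did not call Ier3 (edgeR adjusted p = 0.126).

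Directly compared, double mutants and Jab1 mutants could not be separated at any member. edgeR called 0 of 10 and 0% of all genes. At an unadjusted p below 0.05, 0 members and 5% of all genes passed, and DESeq2 called 0 members and 0.491% of all genes, giving no adjusted p for Fosb. The log2 difference, double mutants minus Jab1 mutants, ran from -0.89 ± 0.8 for Nr4a1 to 0.37 ± 0.33 for Jund. Its 95% interval was -0.69 to 1.26 for Junb, -0.73 to 1.1 for Ier2, -0.66 to 0.43 for Dusp1 and -1.94 to 1.33 for Ier3, so that changes of such size in either direction were not detectable here. Jun had a difference of -0.38 ± 0.28, with an interval of -0.93 to 0.17.

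**Figure D3:**
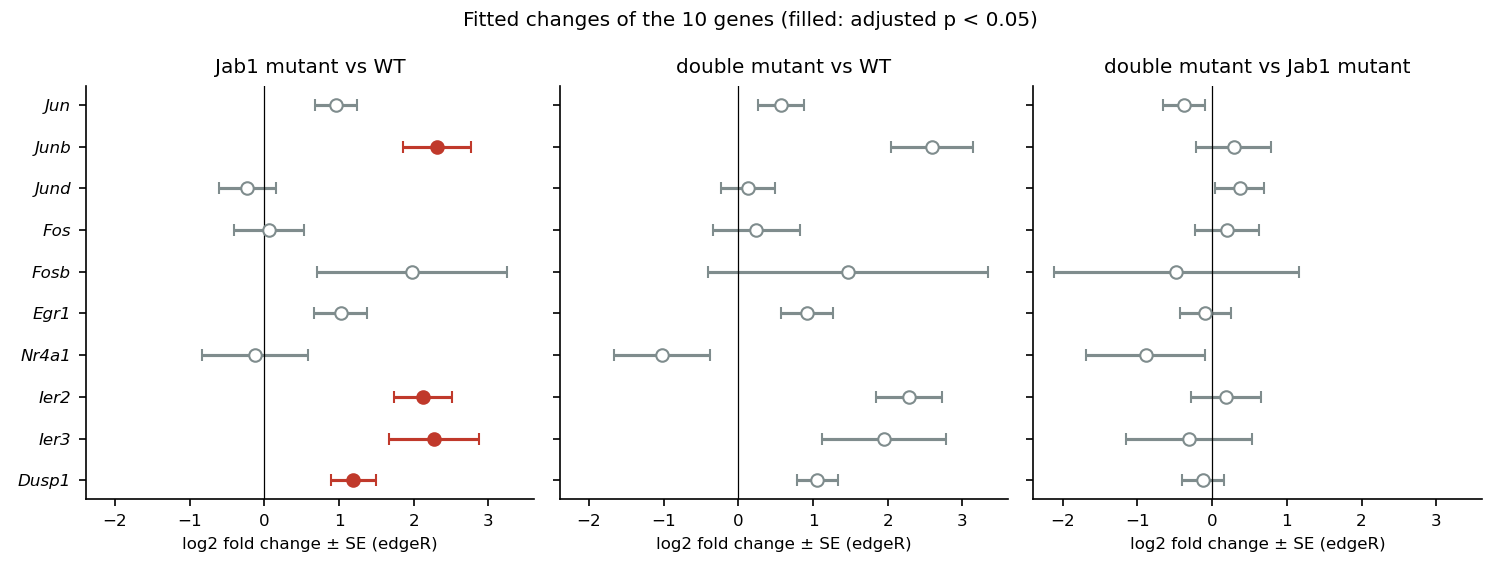
Log2 fold change with SE from edgeR (x axis) of the 10 genes (y axis) in the 3 comparisons, 8 samples each; filled symbols have an adjusted p below 0.05. Filled symbols are Junb, Ier2, Ier3 and Dusp1 in Jab1 mutants against WT, and the estimates for double mutants against Jab1 mutants lie between -0.89 and 0.37.

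Which samples were high for the members depended on the genotype. The median SD of log2(CPM + 1) between samples was 0.6 in WT, 0.5 in Jab1 mutants and 0.62 in double mutants over the members, against 0.5, 0.64 and 0.66 over all genes tested. Jab1 mutant replicate 1 had the highest value of its genotype for all 10 members, and it also had the highest summed endothelial markers (4582 CPM) and microglia markers (2132 CPM) of that genotype. Without it 2 members, Ier2 and Junb, were called in Jab1 mutants. WT replicate 3 had the lowest value of its genotype for 5 members (Fos, Fosb, Jun, Egr1 and Ier2) but the highest for Jund and Nr4a1. In double mutants the highest values were spread over all 4 samples, with replicate 1 highest for Fos, Fosb and Jund and lowest for Jun, Junb, Egr1, Ier2 and Dusp1.

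Marker levels of other cell types went in part with the levels of some members. In Jab1 mutants 13 of 13 microglia markers, 5 of 6 endothelial markers and 3 of 5 mural cell markers tested were called higher than in WT and 6 of 10 oligodendrocyte markers lower, with median log2 changes of 3.88, 2.55, 2.28 and -2.23. Of all genes tested, 5.19% were called higher and 2.46% lower in Jab1 mutants. In double mutants no marker of these lists was called, where 0.175% of all genes were called higher. The medians there, 4.71, 2.1, 2.01 and -1.38 in the same list order, had the same directions. Astrocyte and neuron markers gave 0 calls of 6 each in either comparison. The 6 endothelial markers summed to 626, 495, 266 and 515 CPM in WT, 4582, 682, 2448 and 3629 CPM in Jab1 mutants and 553, 661, 2714 and 4440 CPM in double mutants. The order of the Jab1 mutant samples was the same for Ier3 and for endothelial markers. In double mutants replicates 1 and 2 were lowest for both, but in opposite order (Ier3 13.2 and 2.43 CPM). In WT, Ier3 was highest in replicate 6 (13.5 CPM) and endothelial markers in replicate 1. Such matches were picked out among all members and marker lists. Junb was highest where microglia markers were highest within each genotype: WT replicate 5 (16.4 CPM, with 237 summed marker CPM), Jab1 mutant replicate 1 (77.3 and 2132) and double mutant replicate 3 (120 and 14164). Double mutant replicate 1 had 273 CPM of microglia markers, above the WT range, and 553 CPM of endothelial markers, within it. By the mean of log2(CPM + 1) both lists were above WT in this sample. Microglia markers had 3.72 against at most 3.19 in WT, and endothelial markers 5.79 against at most 5.75. The same sample had 29.4 CPM of Junb and 34.8 CPM of Ier2, above all WT samples. No microglia, endothelial or oligodendrocyte marker was at 0 throughout a genotype, and the part of these cells in the members' levels was not tested.

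**Figure D4:**
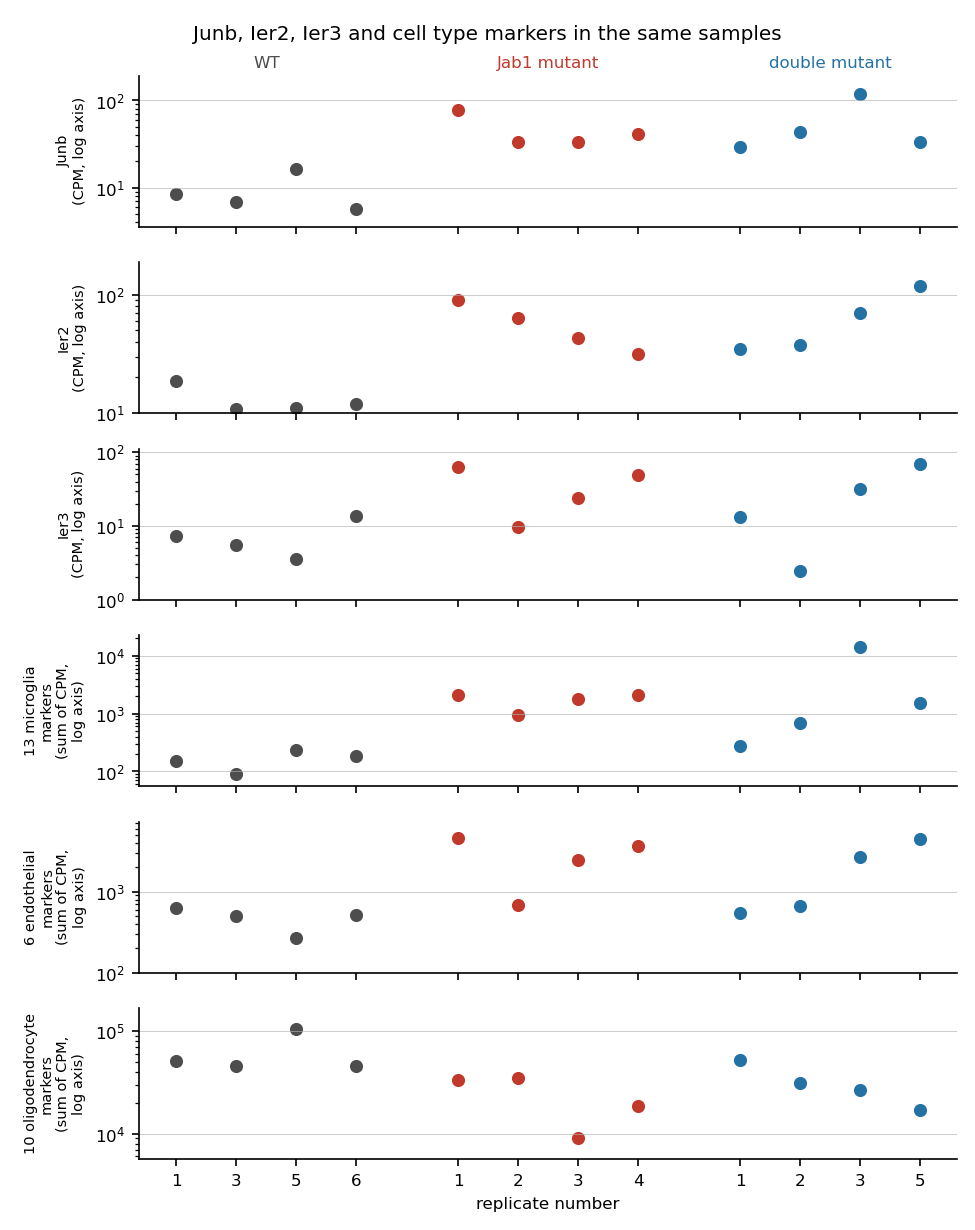
CPM of Junb, Ier2 and Ier3 and summed CPM of microglia, endothelial and oligodendrocyte markers (y axes, log scales) in each of the 12 samples (x axis, replicate number, by genotype). Ier3 and endothelial markers share the low Jab1 mutant replicate 2 (9.8 and 682 CPM), and Junb and microglia markers share the high double mutant replicate 3 (120 and 14164 CPM).

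Beyond the members, 36 of 42 other primary response genes passed the filter. In Jab1 mutants 8 were called higher, against 5.19% of all genes, and 0 lower, with a median log2 change of 1.16. Atf3, a stress-induced bZIP factor that pairs with Jun proteins, was at 0.535, 0.717, 0 and 1.19 CPM in WT, at 88.9, 180, 95.7 and 129 CPM in Jab1 mutants and at 84.1, 216, 74.4 and 40.3 CPM in double mutants. All mutant samples were far above WT, with a log2 change of 7.66 ± 1 in Jab1 mutants (edgeR adjusted p = 0.00217) and 7.39 ± 1.14 in double mutants (0.0404). Only WT replicate 6 reached 1 CPM, so Atf3 passed the filter through the mutant samples. Klf4, a zinc finger factor, was at 2.17 to 7 CPM in WT, 23.9 to 100 CPM in Jab1 mutants and 33.6 to 41.3 CPM in double mutants, with log2 changes of 3.58 ± 0.55 (edgeR adjusted p = 0.00444) and 2.99 ± 0.45 (0.0404). These 2 were the called genes of the list in double mutants, where its median log2 change was 0.95.

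The list had 6 other called genes in Jab1 mutants. The antiproliferative genes Btg1 and Btg2 rose by 1.94 ± 0.29 and 1.37 ± 0.32 on the log2 scale, Zfp36, whose protein promotes decay of AU-rich mRNAs, by 1.48 ± 0.33, and the kinase genes Sik1 and Plk2 by 2.64 ± 0.7 and 1.52 ± 0.41 (edgeR adjusted p from 0.0038 to 0.0457). Dusp2, a MAP kinase phosphatase gene, had 0 counts in all WT samples and 0.0509 to 3.52 CPM in Jab1 mutants. The Jab1 mutant mean was at least 64.8-fold higher against a floor of 3 counts per WT sample (edgeR adjusted p = 0.022). Jab1 mutant replicate 1, with 4 counts, was itself near that floor. Dusp2 passed the filter through the mutant samples, and the list's median is the same with Dusp2 set at the 64.8-fold bound. The genes with the smallest p among those with negative estimates were Homer1, Srf and Plk3, at -1.51 ± 0.47, -1.03 ± 0.6 and -0.55 ± 0.39, and none of them passed in edgeR. DESeq2 called Homer1 lower (adjusted p = 0.0145), and all its Jab1 mutant samples were below WT. In double mutants Socs3, a feedback inhibitor of cytokine signaling, had 3.07 ± 0.62 against WT (edgeR adjusted p = 0.0874), and the negative estimates with the smallest p were those of Srf (-0.98 ± 0.67), Zfp36l2 (-0.48 ± 0.47) and Nfkbiz (-0.62 ± 0.64).

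**Figure D5:**
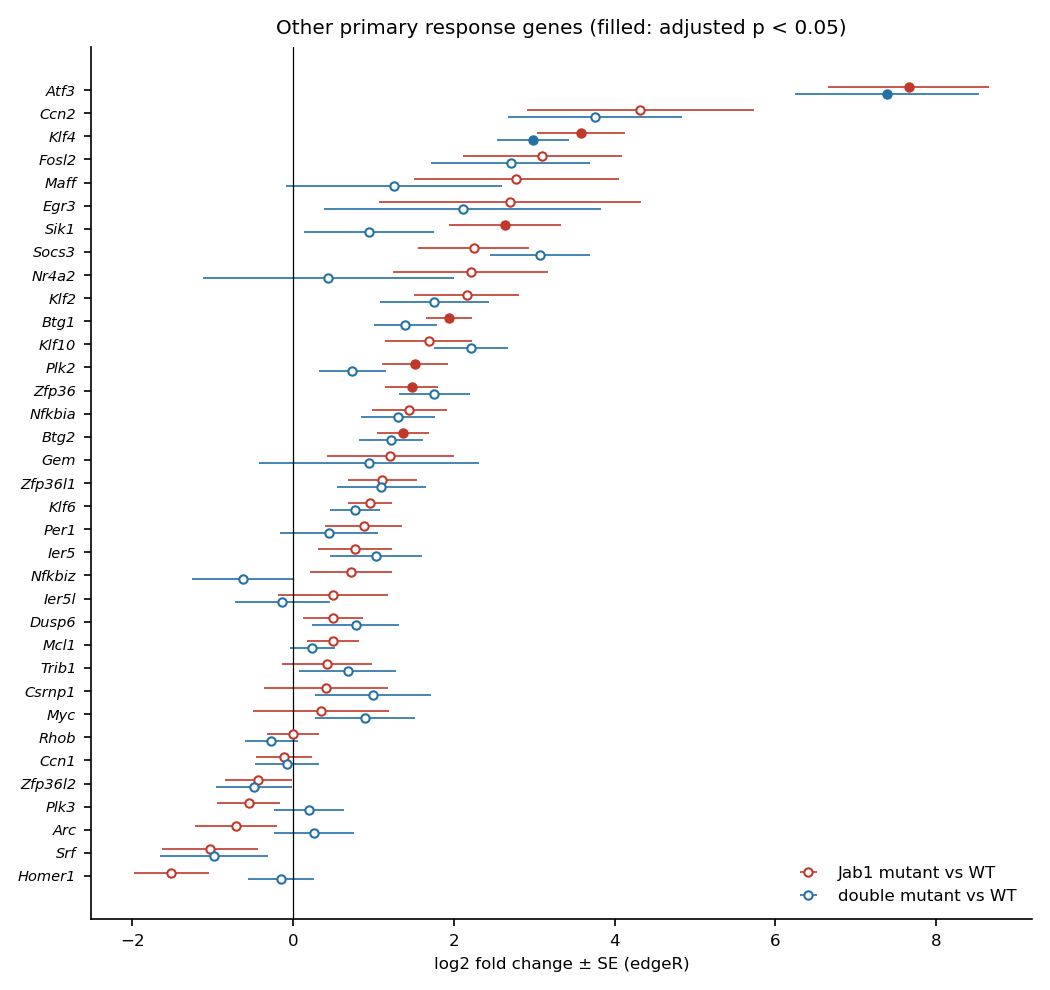
Log2 fold change with SE from edgeR (x axis) against WT in Jab1 mutants and in double mutants for 35 of the 36 other primary response genes tested (y axis), without Dusp2, whose WT counts are all 0; filled symbols have an adjusted p below 0.05. Atf3 (7.66 and 7.39) and Klf4 (3.58 and 2.99) are filled in both.

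Genes that act upstream of the program gave a median near 0. Of 31 listed kinases, transcription factors and turnover regulators, 30 were tested, with a median log2 change of -0.09 in Jab1 mutants and -0.15 in double mutants. In Jab1 mutants 4 were called higher, against 5.19% of all genes. Elk3, a ternary complex factor that acts with SRF, rose by 3.36 ± 0.51 on the log2 scale (edgeR adjusted p = 0.0044). Fbxw7, the ubiquitin ligase subunit that recognizes Jun, rose by 1.54 ± 0.34 (0.0211). The AP-1 factor genes Batf and Batf3 are typical of immune cells, and with no WT sample at 1 CPM both passed the filter through the mutant samples alone. Batf had 3 counts in all WT samples together and 1.99 to 10.7 CPM in Jab1 mutants, a ratio of 695 with a counting interval of 237 to 3375 (edgeR adjusted p = 0.00367), and Batf3 rose by 4.38 ± 1.09 (0.0337). Itch, a ubiquitin ligase gene whose protein acts on Jun and Junb, fell, with a log2 change of -1.47 ± 0.39 (edgeR adjusted p = 0.0431), and Rps6ka5 and Map2k1, at -1.17 ± 0.42 and -0.7 ± 0.3, did not pass.

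In double mutants 0 of the 30 were called by edgeR against WT, 3 were higher at an unadjusted p below 0.05 (7.82% of all genes) and DESeq2 called 3 (4.87% of all genes). Elk3 was at 2.76 ± 0.61, Fbxw7 at 1.12 ± 0.33, Cops5 at -0.82 ± 0.39, Itch at -1 ± 0.5 and Map2k7 at -0.78 ± 0.41 on the log2 scale. Batf had 0, 0, 7.24 and 0.911 CPM in double mutant replicates 1, 2, 3 and 5, and Batf3 had 0.139, 0.158, 4.38 and 0.0628 CPM. Their highest value fell in replicate 3, the sample with the most microglia markers (14164 summed CPM).

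Heat shock genes respond to protein stress rather than to growth signals. In Jab1 mutants 1 of the 8 listed, Hspb1, was called higher, against 5.19% of all genes. The median log2 change of the list was 0.32 in Jab1 mutants and 0.4 in double mutants. Hspb1, a small heat shock protein gene, was at 31.4, 11.2, 9.64 and 23.6 CPM in WT, 125, 41.8, 35.1 and 123 CPM in Jab1 mutants and 27.3, 31, 140 and 213 CPM in double mutants. Its log2 change was 2.1 ± 0.53 in Jab1 mutants (edgeR adjusted p = 0.0364) and 2.43 ± 0.7 in double mutants (0.194). Hspa1a, the classic inducible chaperone gene, had 1.44 ± 0.71 and 1.5 ± 0.77 and did not pass, nor did Hspa8 at -0.43 ± 0.37 and -0.05 ± 0.29, Dnajb1 at -0.28 ± 0.4 in Jab1 mutants or Hsp90aa1 at -0.03 ± 0.43 in double mutants. In double mutants 0 of the 8 were called by edgeR, 1 was higher at an unadjusted p below 0.05 (7.82% of all genes) and DESeq2 called 1 (4.87% of all genes).

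Taking the 3 lists as one, 13 of 74 tested genes were called higher and 1 lower in Jab1 mutants, against 5.19% and 2.46% of all genes, and 2 higher in double mutants, against 0.175%. Atf3, Dusp2, Batf and Batf3, among those called, passed the filter through the mutant samples, so these counts depend in part on that filter. Between double mutants and Jab1 mutants edgeR and DESeq2 called 0, and 3 had an unadjusted p below 0.05: Homer1 at 1.38 ± 0.55, Sik1 at -1.68 ± 0.74 and Ncor1 at -0.79 ± 0.28 on the log2 scale, with edgeR adjusted p of 0.96, 0.968 and 0.902. Among the next smallest p values were those of Plk3 (0.78 ± 0.42), Arc (0.99 ± 0.56), Nfkbiz (-1.33 ± 0.71), Plk2 (-0.77 ± 0.49), Atf1 (-0.94 ± 0.49), Batf3 (-2.33 ± 1.38), Rps6ka5 (0.87 ± 0.56) and Map2k1 (0.39 ± 0.29), and, of the heat shock genes, Hspa8, Dnajb1 and Hspe1 (0.39 ± 0.36, 0.34 ± 0.36 and -0.02 ± 0.3).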

How the data were processed

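RNA-Seq was performed by the authors on O1+ CD45- cells that were dissociated with collagenase, enriched on Percoll and sorted, with amplification by a SMART-Seq v4 kit. Per the submitters' processing notes, reads were trimmed with Trimmomatic 0.32, aligned with STAR 2.5.3a to GRCm38 and counted with featureCounts. The deposited table holds whole-number counts for each symbol as the counter gave them, with no scaling. Strand and multi-mapping settings are not given in the sources used here. Genotypes and replicate numbers came from the labels.

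CPM values were computed with TMM factors over all 12 samples. Each comparison was fitted on its 8 samples with edgeR 4.0.16 (R 4.3.3), using the quasi-likelihood test on 17716 genes (1 CPM or more in no fewer than 4 of 12 samples), Benjamini-Hochberg adjustment over all of them and a threshold of 0.05. SE was taken as the log2 fold change divided by the square root of F, and 95% intervals from SE by the normal distribution. With so few samples such intervals are too narrow for the test. For Cops5 in double mutants against WT the interval was -1.58 to -0.07, where the unadjusted edgeR p was 0.0572. Alternatives were DESeq2 1.42.0, its size factors in edgeR, no filter, all 12 samples in one fit, a block for the replicate number, voom weights with sample quality in limma 3.58.1, and each sample left out in turn. Positions, which are those of the gene records, and exon lengths came from GENCODE M21, while the study names M22.

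The members, the lists of related genes and the markers were chosen with earlier results of these data known. All 10 members are named, with 3 genes of the smallest p per direction and list (2 for heat shock genes) and every called gene, except single-gene results of some genes, which are left out here. Shallow samples gave enough counts that the spread between samples set the precision, and counting intervals and floors cover counting error only. The scripts were tested on simulated counts.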

Additional observations from a re-analysis of the deposited data

Results flagged for a closer look

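Of 30 groups of 4 samples, one per member and genotype, 4 had a sample that lay apart from the others by Dixon's criterion, which chance alone meets in about 1 of 20 groups. In Jab1 mutants replicate 1 had 77.3 CPM of Junb, with the next sample at 40.9 CPM, and in double mutants replicate 3 had 120 CPM, with the next at 43 CPM. These samples had the highest summed microglia markers of their genotypes, 2132 and 14164 CPM. Fosb in double mutant replicate 1 was at 7.09 CPM, against 1.08 CPM in the next sample. Ier2 in WT replicate 1 was at 18.5 CPM, against 12 CPM in the next sample, and still below the lowest mutant sample (31.3 CPM). The cause was not tested in any of these.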

How the results depend on the processing

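In Jab1 mutants against WT, the 4 calls became 2 (Ier2 and Junb) without the filter on low counts and 2 to 4 when a sample was left out. With all 12 samples in one fit they became 3 (Dusp1, Ier2 and Junb). The 14 calls among the other pathway genes became 22 with DESeq2, 6 without the filter, 9 with all 12 samples in one fit and 6 to 16 when a sample was left out. Over all genes, the 1354 calls became 2689 with DESeq2, 903 without the filter (36070 genes tested), 941 in one fit and 678 to 1863. In double mutants against WT, the 0 calls became 3 with DESeq2, 2 with all 12 samples in one fit and 0 to 2 when a sample was left out, and the 2 pathway calls became 12, 1 without the filter, 4 and 0 to 5. There the 34 calls over all genes became 862 with DESeq2, 21 without the filter, 164 in one fit and 1 to 274. All members were called 0 times in double mutants against Jab1 mutants under every alternative.

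Equal replicate numbers did not pair the samples: the correlation of deviations from the genotype means ran from -0.188 to 0.083, and the replicate block is given for completeness. Over all genes the block left 79 calls in Jab1 mutants and 8 in double mutants, against 1354 and 34 in the main fit. With the block, members called fell to 0 in Jab1 mutants, with log2 fold changes of 2.44 for Junb, 2.54 for Ier2, 3.35 for Ier3 and 1.11 for Dusp1, pathway calls were 2 in Jab1 mutants and 1 in double mutants, and the log2 fold change turned to -0.23 for Fos and 0.25 for Nr4a1 in Jab1 mutants, to -0.11 for Fos and -0.1 for Jund in double mutants against WT, and to -0.23 for Ier2 between the mutants.

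Members that were not called also changed direction in other settings: Fos in Jab1 mutants without the filter (-0.04), and with limma-voom Jund in Jab1 mutants (0.1), Fosb in double mutants against WT (-0.84) and Fos between the mutants (-0.03). When a sample was left out, the log2 fold change against WT ran from -0.24 to 0.42 for Fos, -0.41 to 0 for Jund and -0.79 to 0.35 for Nr4a1 in Jab1 mutants, and from -0.04 to 0.6 for Fos, -0.95 to 1.96 for Fosb and -0.04 to 0.37 for Jund in double mutants. Between the mutants it ran from -0.03 to 0.49 for Fos, -0.37 to 0.66 for Junb, -0.21 to 0.15 for Egr1, -0.27 to 0.52 for Ier2, -1.2 to 0.1 for Ier3 and -0.22 to 0.08 for Dusp1. limma-voom with quality weights shifted the median of all genes in Jab1 mutants to -0.1. The causes were not tested.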

Other observations

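The genes whose pattern over the 12 samples was most like that of Fos on log2(CPM + 1) were Pars2 (Pearson r 0.84), B230206L02Rik (0.83), Mrm2 (0.82), Ercc8 (0.8) and Gpank1 (0.8). Among those most like the mean of the standardized values of the 10 members were Fbxw7 (0.91), Nampt (0.89), C1ra (0.87) and Tgfb1i1 (0.87). They were chosen for their high r among all tested genes that are no member, over samples that share their genotypes, and are given as a description.

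Choroid plexus and erythroid markers, 5 genes in all, summed to 1875 to 11360 CPM in WT, 10275 to 78573 CPM in Jab1 mutants and 11711 to 28064 CPM in double mutants. The highest sum was in Jab1 mutant replicate 1, the sample with the highest value of its genotype for all 10 members.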
